A study of Homo sapiens with 18 samples.

Results

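Untreated HT29 colonies were followed from day 3 to day 8 in Matrigel. HT29 is an established human colorectal cancer line that carries mutant BRAF, and Matrigel is a basement membrane extract that sets to a gel and holds growing colonies. The comparison took the 2 arrays of DMSO day 8 against the 2 arrays of DMSO day 3, 4 of the 18 arrays of the series. All 12675 genes with a probe detected on at least 2 of the 12 HT29 arrays were tested, out of 20044 genes with a named probe. The rule used labels and detection only, and not the size or the p of a change. A gene detected only on the 2 arrays of day 8, or only on the 2 of day 3, could still enter because it changed. The rule was therefore not independent of the change between the days.

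The series compared cultures given 3 µM PLX4720, a RAF kinase inhibitor, with cultures given its solvent DMSO, to follow epithelial differentiation over time. Every group used here was an HT29 or Colo-205 Matrigel culture in medium with serum, and treatment with inhibitor or solvent began on culture day 5. The DMSO cultures at days 1, 3 and 8 had 2 arrays each, as had the PLX4720 cultures at the same days. Colo-205, another colorectal cancer line, gave 1 array for DMSO at day 3 and 1 at day 10. The days were read as days of treatment, an inference from the labels. The untreated cultures all carried the solvent and, per the labels, differed in day. The labels call the HT29 replicates biological, and each sample is a whole culture of 1 line.

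Cells short of oxygen stabilise the HIF transcription factors, which turn on glycolytic enzymes and angiogenic factors. Interferons act through the JAK kinases and the STAT and IRF factors, which switch on antiviral proteins and the machinery that presents peptides on MHC class I. Normal colon cells leave the cell cycle as they mature into absorptive enterocytes or mucus-secreting goblet cells. Oxygen, interferon and colony size were not analysed here.

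Values are log2 intensities after background correction and normalization, and a change is the day 8 mean minus the day 3 mean, with 2 arrays a group. Its standard error (SE) rests on a spread per gene estimated from all 12 HT29 arrays in 6 groups. That spread was moderated across genes by limma. A gene was called where its p from limma, adjusted over all 12675 genes, was under 0.05. Between 18308 and 19189 of 47323 probes were detected on the 4 arrays (38.7% to 40.6%). The 2 arrays of a group correlated at 0.990 for day 3 and 0.986 for day 8, and the median SE of a change was 0.18. Of 10 colorectal epithelial markers all were tested, and EPCAM, an epithelial adhesion protein, stood at 13.01 and 12.93 at day 3 and 12.91 and 12.68 at day 8. Of 14 markers of leukocytes, fibroblasts, muscle, endothelium, liver and glia, 6 were detected often enough to be tested. The summed linear intensity of those 6 was 733 and 799 at day 3 and 885 and 1038 at day 8. Without the leukocyte marker CD68 the sum was 329 and 349 at day 3 and 432 and 389 at day 8. Among the 6 markers TAGLN, an actin-binding protein of smooth muscle, rose at least 4.41-fold (adjusted p = 0.00755). The fibroblast marker LUM was detected on none of the 4 arrays. In bulk RNA a change in the number of cells of a kind and a change of RNA per cell cannot be told apart.

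From day 3 to day 8, 4371 genes were called, which is 34.5% of those tested. Among them 2327 were higher at day 8 (18.4% of genes tested) and 2044 were lower (16.1%). In every called gene the 2 day 8 arrays lay outside the range of the 2 day 3 arrays. Large changes were mostly rises: 124 called genes rose by more than 2 on the log2 scale and 11 fell by more than 2. Past a change of 1, 812 genes rose and 449 fell. Called rises included 229 genes detected on neither day 3 array, and called falls included 93 genes detected on neither day 8 array. The median change over all genes was 0.03. With only the 4 arrays of the comparison in the fit the count was 2721, and without the first day 3 array it was 2634.

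**Figure D1:**
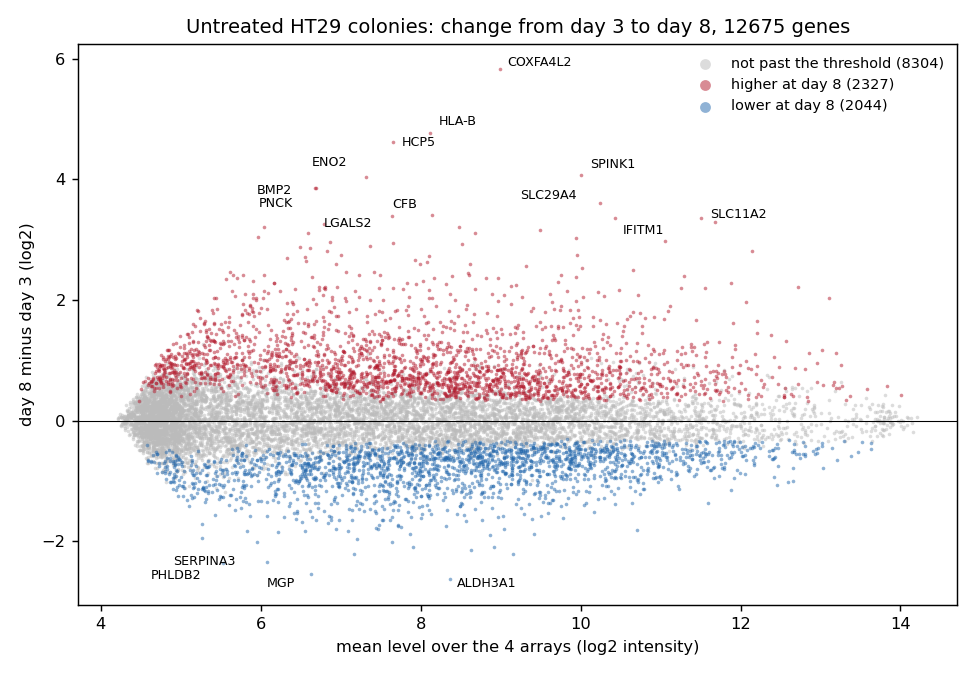
Each point is 1 of 12675 genes, with its mean log2 intensity over the 4 untreated day 3 and day 8 arrays on the horizontal axis and its log2 change from day 3 to day 8 on the vertical axis. Red points (2327) were called higher, blue points (2044) lower and grey points were not called, and the largest rises reach 5.82 while the largest fall is -2.63.

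The largest rise was that of COXFA4L2, also known as NDUFA4L2, a mitochondrial protein related to the respiratory chain and a known HIF target. It stood at 5.57 and 6.60 at day 3 and 11.99 and 11.82 at day 8, a change of 5.82 ± 0.27 or 56.4-fold (adjusted p = 6.42e-06). Next came HLA-B, the heavy chain of an MHC class I molecule, at 5.95 and 5.50 at day 3 and 10.43 and 10.58 at day 8, which is 27.4-fold. HCP5, a non-coding RNA gene within the MHC region, moved from 5.29 and 5.41 to 9.98 and 9.95, with 24.5-fold. In all 3 genes each day 8 array stood more than 4 log2 units above each day 3 array. The HLA-B probe cannot be assumed to be blind to the other class I genes or to allele differences.

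SPINK1, a secreted trypsin inhibitor, rose 16.7-fold, from 8.05 and 7.91 to 11.98 and 12.11 (adjusted p = 3.7e-06). BMP2, a secreted ligand of the TGF-beta family, moved from 4.65 and 4.86 to 8.58 and 8.63, 14.4-fold. PNCK, a calcium/calmodulin-dependent kinase, was detected on neither day 3 array (4.71 and 4.82) and on both day 8 arrays (8.41 and 8.84). For such a gene only a bound holds, computed from the lowest signal that counts as detected, and PNCK rose at least 14.5-fold (adjusted p = 1.36e-05). The remaining genes among the 12 largest rises were SLC29A4, a monoamine transporter (3.61 ± 0.16), CFB, complement factor B (3.40 ± 0.19), LGALS2, a galectin (3.39 ± 0.20), SLC11A2, an iron transporter (3.36 ± 0.16), and ENO2 and IFITM1, described below. The 12 include genes on the hypoxia list, on the interferon and MHC lists, and on none of these.

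**Figure D2:**
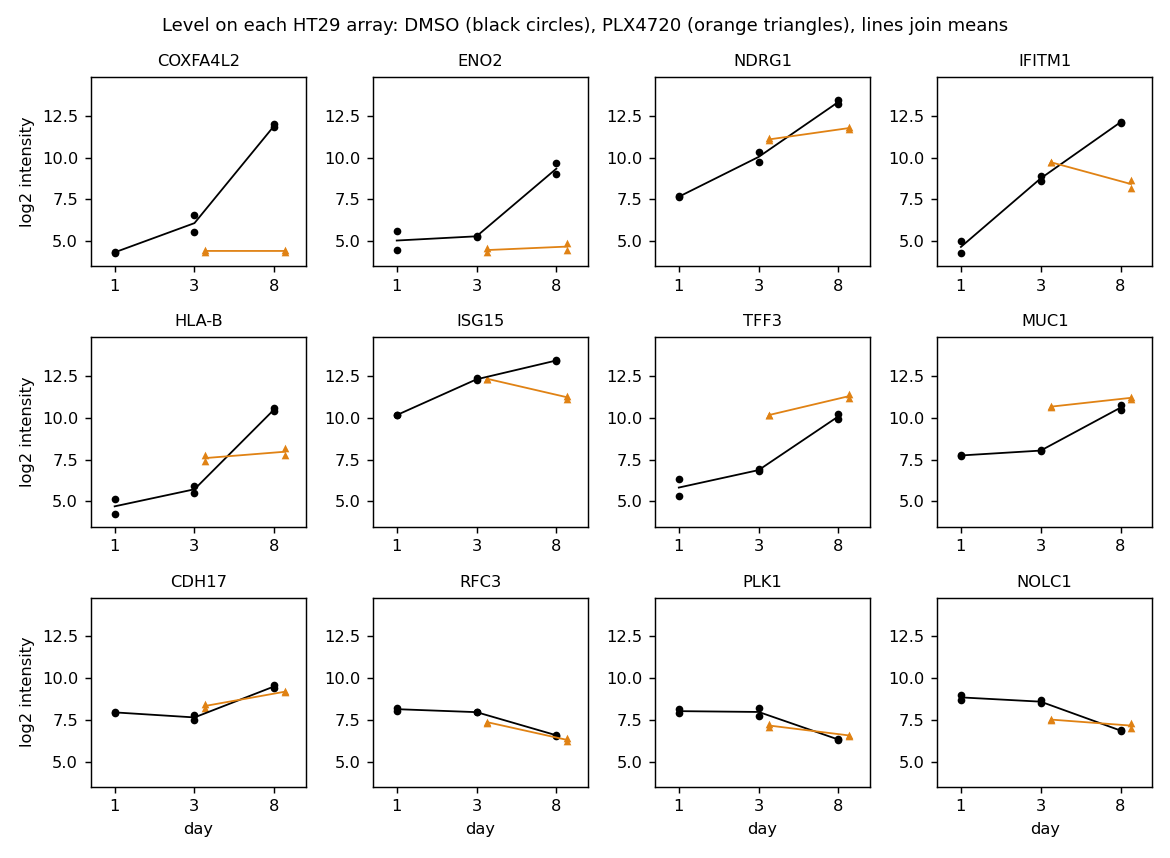
Log2 intensity of 12 genes (vertical axis) on every HT29 array at the days shown (horizontal axis, evenly spaced). Black circles are the 2 DMSO arrays of a day and orange triangles the 2 PLX4720 arrays at days 3 and 8, with lines through the means. COXFA4L2 reaches 11.99 and 11.82 under DMSO at day 8, and RFC3, PLK1 and NOLC1 fall under DMSO between day 3 and day 8.

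Genes of the hypoxia response rose as a group. The list held 35 genes chosen for their textbook link to HIF, of which 30 were tested, and 22 of these rose and 0 fell. That is 73.3% of members tested, against 18.4% of all genes tested. Their median change was 1.47, against 0.03 over all genes. The 8 members that were not called lay between -0.54 (JMJD6, a hydroxylase of RNA-binding proteins) and 0.78 (MXI1, a MYC antagonist). Not analysed further were 5 members, CA9 among them.

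NDRG1, a stress-responsive protein widely used as a marker of low oxygen, stood at 9.75 and 10.33 at day 3 and 13.44 and 13.20 at day 8, a change of 3.28 ± 0.18. EGLN3, a prolyl hydroxylase that marks HIF for destruction and is itself a HIF target, was detected on neither day 3 array (4.34 and 4.55) and on both day 8 arrays (7.35 and 7.63). Its rise was at least 7.69-fold (adjusted p = 8.55e-05). BHLHE40, a circadian and stress repressor, moved from 6.95 and 7.17 to 10.19 and 9.78, 7.57-fold. In these 3 genes, as in every called gene, the days did not overlap, and the 2 day 3 arrays of NDRG1 differed from each other by 0.58.

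Secreted signals of the same list rose as well. VEGFA, the main angiogenic growth factor, stood at 7.01 and 7.24 at day 3 and 9.32 and 9.0 at day 8 (2.03 ± 0.21, adjusted p = 0.000212). ADM, the vasodilator peptide adrenomedullin, stood at 9.28 and 9.52 at day 3 and 11.76 and 12.04 at day 8 (2.50 ± 0.17). ANGPTL4, an inhibitor of lipoprotein lipase, rose by 2.39 on its brightest probe, while another of its 3 probes moved by 0.38. BNIP3, a mitophagy receptor, stood at 4.73 and 4.67 at day 3 and 4.26 and 5.15 at day 8, and its replicates differed by more than the days did. The transcription factor HIF1A itself stood at 7.31 and 7.49 at day 3 and 6.94 and 7.66 at day 8 and was not called (-0.10 ± 0.23, adjusted p = 0.761). Of 7 HIF pathway regulators 2 rose (28.6%, against 18.4% of all genes) and 0 fell. The 2 were CITED2, which competes with HIF for the co-activator p300 (1.21 ± 0.14), and ARNT, the partner subunit of HIF, at least 1.95-fold.

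The promoters of COXFA4L2 and BHLHE40 are shown to let their sequence be set beside these values. NDRG1 (3.28) and EGLN3 (3.04) rose more on the log2 scale than BHLHE40 (2.92), but their promoters are not printed. The letters ACGTG and GCGTG, the core of a hypoxia response element, were searched on both strands in the 300 bases from 250 before to 50 after each start site (RefSeq, GRCh38.p14). Of the 25 tested members with a promoter listed, 20 held a match (80%), as did 61.7% of the promoters of all tested genes and 48.4% of all promoters. The core is short and common, and a match is a description of letters, not of binding. The promoter of COXFA4L2 (chr12:57240713-57241012, minus strand) held 2 matches and that of BHLHE40 (chr3:4979187-4979486, plus strand) held 4, of which the first 2 overlap on opposite strands. That of EGLN3 held 0 in this window. Capitals mark the matches, written 5′ to 3′ on the gene's strand.
COXFA4L2: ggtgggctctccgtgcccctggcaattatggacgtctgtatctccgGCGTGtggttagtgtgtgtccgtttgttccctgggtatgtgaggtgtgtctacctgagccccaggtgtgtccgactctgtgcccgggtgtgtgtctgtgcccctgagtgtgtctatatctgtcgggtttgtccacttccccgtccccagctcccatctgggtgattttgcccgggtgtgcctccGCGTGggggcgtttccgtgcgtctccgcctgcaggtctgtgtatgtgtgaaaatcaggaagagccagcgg
BHLHE40: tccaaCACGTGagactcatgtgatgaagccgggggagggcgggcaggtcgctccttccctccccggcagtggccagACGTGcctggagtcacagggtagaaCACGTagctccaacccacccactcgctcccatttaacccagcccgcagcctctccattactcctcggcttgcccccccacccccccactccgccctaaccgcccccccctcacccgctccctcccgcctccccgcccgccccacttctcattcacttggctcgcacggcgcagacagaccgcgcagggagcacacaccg

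Glycolysis genes rose too. Of 25 genes on this list 22 were tested, and 13 rose (59.1%, against 18.4% of all genes). By contrast 2 fell (9.09%, against 16.1%), and the median change was 0.80. ENO2, the neuronal form of enolase, stood at 5.33 and 5.26 at day 3 and 9.0 and 9.67 at day 8, a rise of 16.4-fold (adjusted p = 7.7e-05). ALDOC, an aldolase isoform, moved from 9.30 and 9.84 to 12.54 and 12.55, 7.85-fold. PFKFB4 and PFKFB3, enzymes that make the activator of phosphofructokinase, rose by 2.53 and 1.67 on the log2 scale. The glucose transporter SLC2A1 rose by 1.12 ± 0.13, and the hexokinase HK2 by 0.88 ± 0.13.

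Among the housekeeping enzymes of the pathway, LDHA, which makes lactate, rose by 0.57 ± 0.14 and PGK1, phosphoglycerate kinase, by 0.88 ± 0.15. PDK1, a kinase that shuts pyruvate out of mitochondria, was not called (0.76 ± 0.29, adjusted p = 0.073). PDK1, SLC2A1, HK2, PFKFB3, PFKFB4 and the untested SLC2A3 also stand on the hypoxia list, so the lists overlap and share rises. TXNIP, an arrestin-like protein that limits glucose uptake, stood at 10.73 and 10.74 at day 3 and 13.54 and 13.56 at day 8 and rose 7.04-fold. Its relative ARRDC4 rose 4.1-fold. Of 29 mitochondrial respiration genes 7 fell (24.1%, against 16.1% of all genes) and 1 rose, with a median of -0.13. With only the 4 arrays of the comparison 1 fell, and 2 fell when either day 3 array or the second day 8 array was left out. Citrate synthase, CS, fell by 0.95 and the dehydrogenase subunit IDH3A fell by 0.68, while SDHA of complex II rose by 0.70 ± 0.10.

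Interferon response genes rose in nearly the whole list. Of 42 genes 40 were tested, and 37 rose (92.5%) and 0 fell, against 18.4% of all genes that rose. The median change was 1.53. IFITM1, a membrane protein that blocks virus entry, stood at 8.88 and 8.63 at day 3 and 12.08 and 12.14 at day 8, a rise of 10.2-fold (adjusted p = 3.47e-05). IFI44L, an interferon-induced protein, moved from 8.30 and 8.55 to 11.64 and 11.26, 8.16-fold. OAS2, an enzyme that senses double-stranded RNA, moved from 10.11 and 10.07 to 12.47 and 12.51 on its brightest probe, although another of its 4 probes moved by 0.04. These members were picked for their large called changes, so replicates that lie close together beside the distance between the days are no added support.

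TRIM22, an antiviral ubiquitin ligase, was detected only on the day 8 arrays and rose at least 4.89-fold (adjusted p = 0.000841). ISG15, a ubiquitin-like modifier, stood at 12.35 and 12.23 at day 3 and 13.39 and 13.44 at day 8, and IFI27, a mitochondrial interferon-induced protein, at 11.66 and 11.57 at day 3 and 13.85 and 13.82 at day 8. The 3 members that were not called were IRF1, a transcription factor (0.17 ± 0.17), HERC5, a ligase for ISG15 (0.19 ± 0.25), and CMPK2, a nucleotide kinase (0.21 ± 0.33). IFITM1, IFITM2 and IFITM3 are near-identical neighbours on chromosome 11, and their probes may share signal.

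The day 1 arrays were then set beside them, with no test. In 40 of the 40 members both day 3 arrays stood above both day 1 arrays, a pattern found in 22.7% of all genes tested. The median member gained 2.24 from day 1 to day 3 and 1.53 from day 3 to day 8. For IFITM1 the day 1 values were 5.01 and 4.32, and for ISG15 they were 10.18 and 10.14. Of the hypoxia list, 16 of 30 members stood higher at day 3 than at day 1 without overlap, with a median gain of 0.42 before day 3 and 1.47 after it. The 2 intervals share the day 3 arrays.

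Promoters of the interferon list were searched on both strands for GAAANNGAA, the core of the interferon-stimulated response element. A match was present in 21 of 32 tested members in the table (65.6%), in 6.58% of the promoters of all tested genes and in 8.29% of all promoters. The 2 members with the largest rises are shown, and each holds 2 matches. In IFI44L both matches lie in copies of the same stretch of bases. The promoter of IFITM3, not shown, also held 2. IFITM1 lies at chr11:313790-314089 and IFI44L at chr1:78620198-78620497, both on the plus strand, and capitals mark the matches. In IFITM1 the matches begin 40 and 6 bases before the start site, and in IFI44L 164 and 73 bases before it.
IFITM1: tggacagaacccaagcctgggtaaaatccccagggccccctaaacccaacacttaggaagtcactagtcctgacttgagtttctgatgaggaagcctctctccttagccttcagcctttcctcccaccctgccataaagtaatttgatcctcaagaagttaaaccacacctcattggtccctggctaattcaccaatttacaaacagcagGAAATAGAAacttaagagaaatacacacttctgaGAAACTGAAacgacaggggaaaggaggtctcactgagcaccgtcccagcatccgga
IFI44L: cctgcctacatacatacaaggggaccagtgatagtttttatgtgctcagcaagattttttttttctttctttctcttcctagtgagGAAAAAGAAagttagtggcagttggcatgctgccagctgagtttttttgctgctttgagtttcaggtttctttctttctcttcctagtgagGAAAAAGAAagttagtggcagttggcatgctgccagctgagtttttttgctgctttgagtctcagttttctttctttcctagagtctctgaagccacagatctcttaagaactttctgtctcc

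Genes for MHC class I presentation rose as well. Of 20 genes 17 were tested, and 12 rose (70.6%, against 18.4% of all genes) and 0 fell, with a median of 0.92. Besides HLA-B, the class I gene HLA-F stood at 9.05 and 9.04 at day 3 and 10.79 and 10.98 at day 8 (1.84 ± 0.14). The immunoproteasome subunits PSMB9 and PSMB8, which cut proteins into peptides for presentation, rose by 1.80 ± 0.22 and 1.73 ± 0.21. The light chain B2M, common to all class I molecules, rose by 0.92 ± 0.11 although it is often taken as a reference gene. The 5 members not called included the chaperone CALR (-0.07 ± 0.13).

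Of 18 tested chemokines and NF-kB targets 6 rose (33.3%, against 18.4% of all genes) and 3 fell (16.7%, against 16.1%). The share that fell is near that of all genes, and the median was 0.26. TNFAIP2, a TNF-induced protein, rose by 1.80 ± 0.19, and the chemokines CXCL11 and CCL5, which attract T cells, rose by 1.27 ± 0.27 and 1.11 ± 0.16. CXCL8, which attracts neutrophils, fell from 8.88 and 8.17 to 7.45 and 7.18.

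Many of the tested genes of mature colon cells rose. Goblet members with a probe that were not detected often enough to be tested included MUC2, CLCA1, MUC5B and REP15. Of 25 goblet genes 18 were tested, and 13 rose (72.2%, against 18.4% of all genes) and 2 fell (11.1%, against 16.1%). The median was 1.30. TFF3, the intestinal trefoil peptide secreted with mucus, stood at 6.91 and 6.83 at day 3 and 9.92 and 10.24 at day 8, a rise of 9.24-fold (adjusted p = 0.000175). MUC1, a membrane mucin, moved from 8.0 and 8.07 to 10.47 and 10.73, 5.91-fold. FCGBP, a mucus protein, moved from 6.75 and 6.86 to 9.29 and 8.86, and TFF2, another trefoil peptide, from 7.30 and 7.56 to 9.36 and 9.49. SPDEF, a factor that drives goblet maturation, rose by 1.53 ± 0.19, whereas ATOH1, which commits cells to the secretory lineage, was not detected on any of the 4 arrays. The 2 members that fell, MUC12 and CLCA4, were detected at day 3 and not at day 8, at least 1.6-fold and 1.43-fold lower. These calls were lost in 12 of 16 alternative settings for MUC12 and 13 of 16 for CLCA4 (highest adjusted p = 0.232 and 0.241), and the other MUC12 probe moved by 0.16. SPDEF, ATOH1, MUC12 and CLCA4 were picked after their values were seen.

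On the list for absorptive enterocytes 25 of 38 genes were tested. Of these 13 rose (52%, against 18.4% of all genes) and 0 fell, with a median of 0.51. Members with a probe that were not detected often enough to be tested included FABP1, FABP2, SLC26A3, CA1 and AQP8. CDHR5, a brush border protocadherin, stood at 4.90 and 5.17 at day 3 and 6.99 and 7.63 at day 8 (2.28 ± 0.24), and CDH17, the liver-intestine cadherin, at 7.78 and 7.50 at day 3 and 9.42 and 9.57 at day 8 (1.85 ± 0.15). CEACAM6 and DPP4, surface proteins of mature colon and intestinal cells, rose by 2.19 ± 0.39 and 2.0 ± 0.38. KRT20, the keratin of mature colon epithelium, rose little, from 10.66 and 10.88 to 11.36 and 11.11. CDX2, the factor that specifies intestine, stood at 4.47 and 4.69 at day 3 and 5.63 and 4.72 at day 8 and was not called (adjusted p = 0.0971), and 1 of its day 8 arrays lay close to the day 3 arrays.

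Of 16 tested genes of stem cells and Wnt targets 6 rose (37.5%, against 18.4% of all genes) and 1 fell (6.25%, against 16.1%). The median was 0.44. PROM1, the surface antigen CD133, rose by 1.82 ± 0.15, and ASCL2, a factor of crypt stem cells, by 1.62 ± 0.16. RNF43, a Wnt-induced inhibitor of Wnt receptors, rose by 1.16 ± 0.16, while DKK1, a secreted Wnt inhibitor, fell from 8.92 and 8.52 to 7.89 and 7.04. LGR5, the receptor that marks crypt stem cells, stood at 5.21 and 5.26 at day 3 and 5.08 and 4.83 at day 8 and was not called.

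Of 30 tested junction genes 11 rose (36.7%, against 18.4% of all genes) and 3 fell (10%, against 16.1%). The count that rose was 5 with only the 4 arrays of the comparison and 6 without the first day 3 array. CDH1, the epithelial cadherin, rose by 0.82 ± 0.16 and CDH3, the placental cadherin, by 1.37 ± 0.20. OVOL2, an epithelial transcription factor, fell from 8.60 and 8.15 to 6.58 and 6.55, while its relative OVOL1 rose by 0.92 ± 0.17. The tight junction protein CLDN1 fell by 0.93. VIM, the filament protein of mesenchymal cells, fell by 0.93 (adjusted p = 0.0213), while ITGB4, the integrin chain of hemidesmosomes, rose by 1.43 ± 0.17. Of the 20 tested genes on the mesenchymal and invasion list 7 rose (35%) and 2 fell (10%). Of 9 keratins tested 3 rose (33.3%) and 2 fell (22.2%). KRT19 was up by 1.17 ± 0.12 and KRT18 down from 9.77 and 9.77 to 9.41 and 8.58.

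Genes of DNA replication fell together. Of 39 genes 36 were tested, and 30 fell (83.3%) and 0 rose, against 16.1% of all genes that fell. The median change was -0.87. RRM2, the subunit of ribonucleotide reductase that limits nucleotide supply, stood at 8.62 and 8.66 at day 3 and 7.49 and 6.25 at day 8, and its day 8 arrays differed from each other by more than 1. RFC3, a part of the clamp loader, moved from 7.94 and 7.97 to 6.54 and 6.61 (adjusted p = 8.48e-05). POLE2, a subunit of a replicative polymerase, moved from 9.06 and 8.82 to 7.69 and 7.55, and GINS3, of the replicative helicase, from 8.73 and 8.43 to 7.40 and 7.22. The helicase subunit MCM2 was not called (-0.38 ± 0.14, adjusted p = 0.0585).

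Promoters of this list were searched on both strands for TTTCCCGC, TTTGGCGC, TTTGCCGC and TTTCGCGC, forms of the site read by the E2F factors. A match was present in 19 of 33 members in the table (57.6%), against 5.31% of the promoters of all tested genes and 3.33% of all promoters. RFC3 (chr13:33817899-33818198, plus strand) and POLE2 (chr14:49688165-49688464, minus strand) are shown, each with 1 match in capitals, 55 and 5 bases before the start site. RRM2, with the largest fall on this list, held 0 in this window.
RFC3: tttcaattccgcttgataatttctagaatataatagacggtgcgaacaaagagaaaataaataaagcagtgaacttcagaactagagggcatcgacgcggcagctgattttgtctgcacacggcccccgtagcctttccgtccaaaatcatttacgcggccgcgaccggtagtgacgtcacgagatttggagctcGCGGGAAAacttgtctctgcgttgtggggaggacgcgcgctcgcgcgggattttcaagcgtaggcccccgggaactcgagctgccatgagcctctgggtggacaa
POLE2: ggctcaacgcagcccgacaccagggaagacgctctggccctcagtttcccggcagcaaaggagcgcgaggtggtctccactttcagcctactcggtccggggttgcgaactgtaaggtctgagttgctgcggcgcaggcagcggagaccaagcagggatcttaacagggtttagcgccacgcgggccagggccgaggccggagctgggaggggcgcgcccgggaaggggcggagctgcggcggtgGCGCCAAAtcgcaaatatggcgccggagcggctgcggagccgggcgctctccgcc

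Mitosis genes fell. All 33 were tested, and 26 fell (78.8%, against 16.1% of all genes) and 0 rose, with a median of -0.72. PLK1, a kinase that drives entry into mitosis, moved from 8.18 and 7.75 to 6.27 and 6.37 (-1.65 ± 0.18). CENPA, the histone of centromeres, moved from 9.65 and 9.58 to 8.52 and 7.81, and CCNA2, cyclin A, from 10.57 and 10.45 to 9.42 and 8.83. CDC20, an activator of the anaphase-promoting complex, fell by 1.16 and CCNB1, cyclin B, by 0.82. MKI67, the proliferation marker Ki-67, stood at 6.08 and 6.77 at day 3 and 6.52 and 6.44 at day 8 and was not called (0.06 ± 0.27), nor was TOP2A, a topoisomerase (-0.26 ± 0.13).

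Of 16 brakes of the cell cycle 7 rose (43.8%, against 18.4% of all genes) and 1 fell. The count that rose was 4 with only the 4 arrays of the comparison or without the second day 8 array, and 3 without the second day 3 array. CDKN1A, the inhibitor p21, stood at 8.45 and 8.69 at day 3 and 9.90 and 9.79 at day 8 (1.28 ± 0.15), and BTG1, an antiproliferative protein, rose by 1.12 ± 0.13. KLF4, a factor of differentiated colon cells, rose by 1.06 ± 0.30. CDKN1B, the inhibitor p27, gave 0.36 ± 0.12 on its brightest probe and -0.09 on its other, and its call was lost in 9 of 16 alternative settings (highest adjusted p = 0.534). RB1, the retinoblastoma protein, fell from 7.06 and 6.92 to 6.40 and 5.51.

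Genes for making ribosomes, many of them MYC targets, fell too. Of 26 genes 23 were tested, and 18 fell (78.3%, against 16.1% of all genes) and 0 rose, with a median of -0.89. ODC1, the first enzyme of polyamine synthesis, stood at 11.68 and 11.54 at day 3 and 9.99 and 9.62 at day 8 (-1.81 ± 0.14). NOLC1, a nucleolar phosphoprotein, moved from 8.65 and 8.51 to 6.86 and 6.85 (adjusted p = 6.77e-05). POLR1G, a subunit of RNA polymerase I, moved from 7.79 and 7.57 to 6.24 and 5.74, and LYAR, a nucleolar growth regulator, fell by 1.61. MYC itself stood at 11.46 and 11.19 at day 3 and 10.28 and 9.64 at day 8, a change of -1.36 on the log2 scale (adjusted p = 0.00152). DANCR, a non-coding RNA, fell from 9.71 and 9.71 to 7.62 and 7.51, and SNORD16, a small nucleolar RNA, from 6.98 and 6.94 to 5.13 and 4.76. SNORD16 was detected on 1 of the day 8 arrays, and its probe may read the host transcript.

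Of 23 tested genes read as output of the MAPK pathway, the pathway downstream of BRAF, 5 rose (21.7%, against 18.4% of all genes) and 7 fell (30.4%, against 16.1%), with a median of 0.15. The share that rose is near that of all genes. EGR1, an immediate early factor, fell from 9.41 and 9.24 to 7.85 and 7.66, and EREG, an EGF receptor ligand detected on 1 day 3 array and neither day 8 array, fell at least 3-fold. FOS, another immediate early factor, rose by 1.46 ± 0.17. DUSP6, a phosphatase that MAPK activity switches on, stood at 9.28 and 9.27 at day 3 and 9.45 and 9.79 at day 8 and was not called, nor was CCND1, cyclin D1 (-0.13 ± 0.13).

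The largest falls included several enzymes of detoxification and redox balance. ALDH3A1, an aldehyde dehydrogenase, moved from 9.82 and 9.54 to 7.13 and 6.97, a change of -2.63 on the log2 scale (adjusted p = 1.64e-05). UGT1A8, a glucuronosyltransferase that shares exons with its locus neighbours, moved from 10.27 and 10.26 to 8.60 and 7.51. GCLM, a subunit of the enzyme that starts glutathione synthesis, fell from 10.03 and 9.91 to 8.24 and 7.51, while its other probe moved by -0.06. Of 17 tested targets of NRF2, the factor that responds to oxidants, 10 fell (58.8%, against 16.1% of all genes) and 0 rose. The median was -0.51. SLC7A11, the cystine importer, was not detected at day 8 and fell at least 3.3-fold, and AKR1B10 and AKR1C2, aldo-keto reductases with near-identical relatives, fell by 1.88 and 1.83. With only the 4 arrays of the comparison in the fit 6 of the 17 fell. In 12 of the 17 both day 3 arrays already stood below both day 1 arrays, against 23.2% of all genes tested.

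The other large falls were these. MGP, an inhibitor of calcification, moved from 7.93 and 7.86 to 5.74 and 4.96. PHLDB2, which anchors microtubules at the cell edge, fell at least 4.56-fold to below detection (adjusted p = 2.01e-05). SERPINA3, a protease inhibitor, moved from 7.25 and 7.24 to 4.96 and 4.85. PALS2, a membrane scaffold, fell by 2.22, COTL1, an actin-binding protein, by 2.01, and PI3, the elastase inhibitor elafin, by 1.96. LYPLA1, a thioesterase, fell by 2.10 on its brightest probe, but its day 8 arrays read 7.49 and 6.21 and its other probe moved by 0.12.

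Of 19 amino acid stress genes 6 rose (31.6%, against 18.4% of all genes) and 8 fell (42.1%, against 16.1%). DDIT4, an inhibitor of mTORC1 that low oxygen also induces, stood at 9.43 and 9.93 at day 3 and 11.58 and 11.93 at day 8 (2.08 ± 0.19). VLDLR, a lipoprotein receptor, rose by 1.71 ± 0.16, whereas SLC7A5, a transporter of large amino acids, fell by 1.21. On the list for folding stress in the endoplasmic reticulum 6 of 15 fell (40%) and 1 rose (6.67%). The largest change there was that of the chaperone partner SDF2L1, which fell by 1.16.

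The lists that follow are set against 18.4% of all genes that rose and 16.1% that fell. Of 14 fatty acid genes 5 rose (35.7%) and 1 fell (7.14%), and ACSS2, which makes acetyl-CoA from acetate, stood at 8.52 and 8.61 at day 3 and 10.56 and 10.77 at day 8 on its brightest probe, while another of its 3 probes moved by -0.19. SREBF1, a factor for lipid genes, rose by 1.07 ± 0.19, and FASN, fatty acid synthase, stood at 12.13 and 12.17 at day 3 and 12.40 and 11.98 at day 8 and was not called. Of 18 cholesterol genes 6 rose (33.3%) and 2 fell (11.1%), with HMGCS1, an early enzyme of the pathway, up by 0.49 ± 0.15. Of 23 lysosome and autophagy genes 7 rose (30.4%) and 3 fell (13%). ULK1, the kinase that starts autophagy, moved from 8.93 and 8.96 to 10.98 and 10.88. Of 18 apoptosis regulators 3 rose and 3 fell (16.7% each), which is near the share of all genes. Among them CASP8, an initiator caspase, fell at least 2.42-fold, and BMF, a killer BH3 protein, rose at least 2.65-fold. Of 10 enteroendocrine genes 1 rose and 1 fell (10% each), and of 7 metallothioneins none was called. Of 12 reference genes 4 rose (33.3%) and 1 fell (8.33%), with B2M and SDHA among those that rose.

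**Figure D3:**
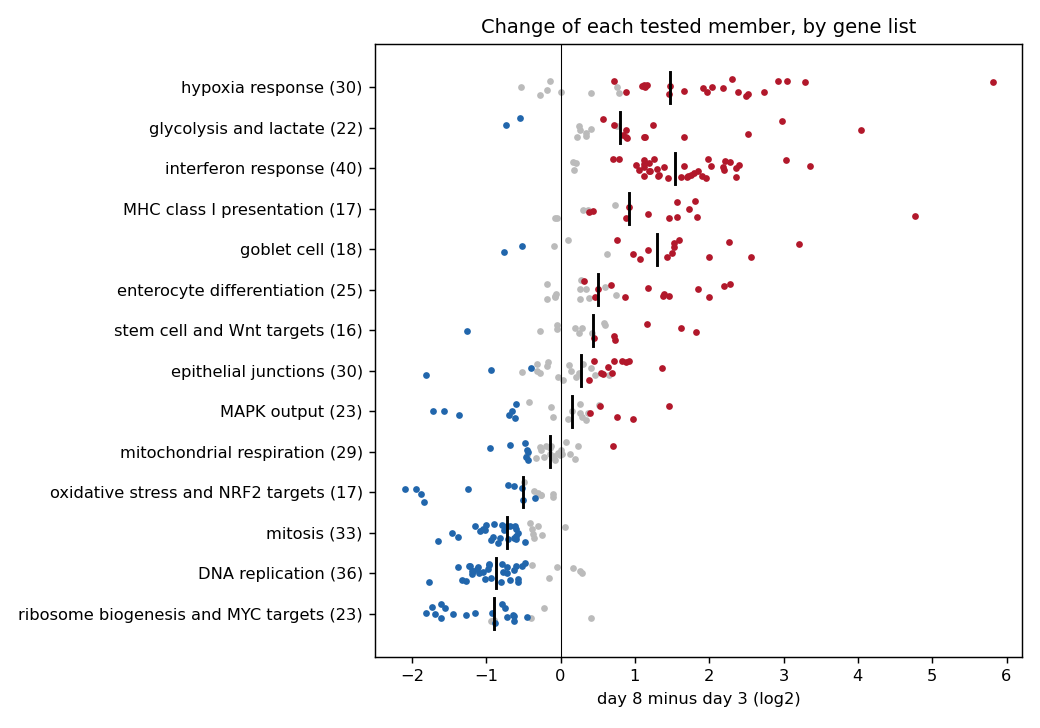
Each point is a tested member of a gene list (rows, with the number tested) at its log2 change from day 3 to day 8 (horizontal axis). Red members were called higher, blue lower and grey were not called, and black bars are the medians, which run from 1.53 for interferon response to -0.89 for ribosome biogenesis and MYC targets.

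The late change was then set against that under PLX4720, whose cultures share no array with the DMSO cultures. Under the inhibitor 154 genes were called higher at day 8 than at day 3 (1.21% of genes tested) and 161 lower (1.27%). The difference between the 2 changes was tested in the same fit. The DMSO change stood above the PLX4720 change in 623 genes (4.92%) and below it in 449 (3.54%). With median scaling in place of quantile normalization these were 689 and 296. The total of 1072 fell to between 440 and 618 when any 1 array was left out other than the first DMSO day 8 array, without which it was 1285. PLX4720 cultures at day 3 had already been treated, so this compares late changes and not levels.

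The hypoxia list showed this difference in 20 of 30 members, all above, and its median change under PLX4720 was -0.06. COXFA4L2 stood at 4.50 and 4.35 at day 3 and 4.37 and 4.48 at day 8 under the inhibitor, not well above background on those 4 arrays. The fitted difference of 5.82 ± 0.37 (adjusted p = 0.000123) therefore rests on a PLX4720 change that was not measured. In the interferon list 38 of 40 members differed, all above. Under the inhibitor 19 members fell, against 1.27% of all genes, 0 rose, and the median change was -0.85. IFITM1 stood at 9.70 and 9.73 at day 3 and 8.20 and 8.64 at day 8 under PLX4720, a difference of 4.65 ± 0.33 (adjusted p = 0.00018). IFI44L gave a difference of 3.93 ± 0.26 and HCP5 of 4.19 ± 0.26. HLA-B stood at 7.76 and 7.42 at day 3 and 7.76 and 8.18 at day 8 under PLX4720, above its DMSO day 3 level on both days, with a difference in change of 4.39 ± 0.40.

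The ribosome list differed in 14 of 23 members, all below, and its median change under PLX4720 was -0.06. NOLC1 stood at 7.47 and 7.55 at day 3 and 7.31 and 7.0 at day 8 under the inhibitor, already below the DMSO day 3 level at its day 3. Of the replication list none of 36 members was called for the difference by limma. Under PLX4720 10 of them fell, against 1.27% of all genes, and the median change was -0.58. At an unadjusted p under 0.05, 6 of the 36 differed, a smaller share than the 3157 of 12675 among all genes tested. Of 33 mitosis genes 8 fell under PLX4720, with a median of -0.59, and 1, PLK1, differed (-1.06 ± 0.26, adjusted p = 0.0389). A difference that was not called is not shown to be absent, and its median SE was 0.25.

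Of the goblet list 6 of 18 members differed (33.3%, against 4.92% of all genes), all above. Under PLX4720 6 members rose as well, against 1.21% of all genes. TFF3 stood at 10.13 and 10.19 at day 3 and 11.16 and 11.41 at day 8 under the inhibitor and differed by 2.08 ± 0.46 (adjusted p = 0.026). FCGBP, which rose under both, did not pass the test of the difference (0.58 ± 0.29, adjusted p = 0.244). The 5 genes with the largest differences below all rose under PLX4720. RGS4, an inhibitor of G protein signalling, stood at 4.48 and 4.51 at day 3 and 7.53 and 7.76 at day 8 under PLX4720. It was detected there on the day 8 arrays only, and rose at least 8.7-fold (adjusted p = 5.64e-06). TMEM158, a membrane protein linked to RAS, fell under DMSO and rose under PLX4720 (-3.06 ± 0.33). PRSS1, a trypsin gene with close relatives, rose 7.78-fold under PLX4720, PAX4, an endocrine cell factor, 7.35-fold, and ENPP2, which makes lysophosphatidic acid, 7.37-fold. RGS4, PRSS1, PAX4 and ENPP2 were not well above background on the 4 DMSO arrays, so the size of their difference between DMSO and PLX4720 is not given here.

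**Figure D4:**
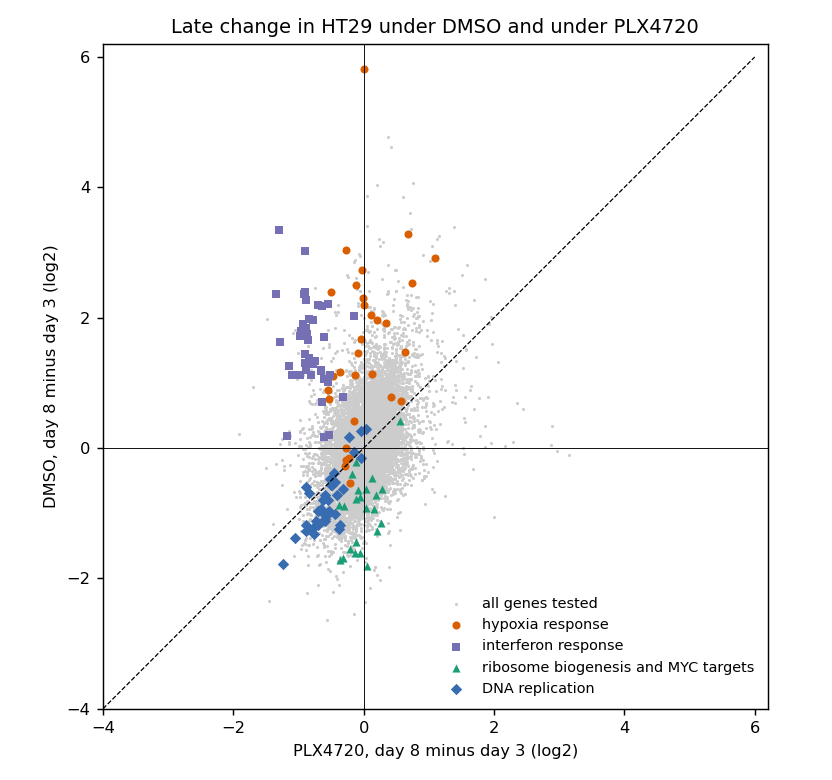
Each grey point is 1 of 12675 genes, with its log2 change from day 3 to day 8 under PLX4720 (horizontal axis) and under DMSO (vertical axis), and the dashed line marks equal change. Hypoxia members (orange) have a median of 1.47 under DMSO and -0.06 under PLX4720, interferon members (purple) 1.53 and -0.85, ribosome members (green) -0.89 and -0.06, and replication members (blue) -0.87 and -0.58.

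Colo-205 under DMSO gave 1 array at day 3 and 1 at day 10, so its values stand beside those of HT29 without a test or a replicate check, and its last day differs. Of the hypoxia list 29 members were detected in Colo-205 and 25 of these were higher at day 10. The median over all 30 tested members was 1.57. COXFA4L2 stood at 5.04 at day 3 and 10.0 at day 10, NDRG1 at 8.29 at day 3 and 11.80 at day 10 and ENO2 at 7.07 at day 3 and 10.01 at day 10. Glycolysis genes were higher in 19 of 21 detected members. Over all genes detected in Colo-205, 5182 of 10682 were higher at day 10.

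Of the interferon list, 21 of 32 members detected in Colo-205 were higher at day 10. The median difference over all 40 tested members, detected there or not, was 0.12. ISG15 stood at 9.29 at day 3 and 8.68 at day 10, and IFITM1 and IFI44L were not detected there. HLA-B stood at 8.77 at day 3 and 10.75 at day 10. All 21 detected ribosome members were lower at day 10, and the median over all 23 tested members was -0.93. ODC1 stood at 11.24 at day 3 and 9.87 at day 10. Replication genes were lower in 32 of 36 and mitosis genes in 24 of 33. Of the goblet list 8 of 12 detected members were higher, and TFF3 stood at 12.83 at day 3 and 13.99 at day 10.

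**Figure D5:**
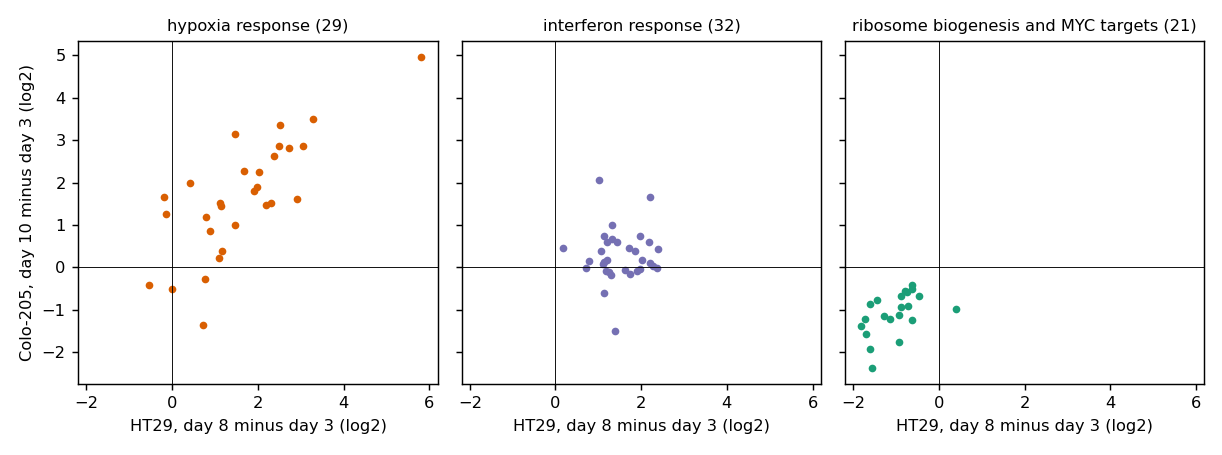
Members of 3 gene lists that were detected in Colo-205 (number in each title), with the HT29 log2 change from day 3 to day 8 on the horizontal axis and the Colo-205 difference between 1 array at day 10 and 1 at day 3 on the vertical axis. Hypoxia members lie mostly in the upper right (25 of 29 above 0), interferon members spread around 0 on the vertical axis, and all 21 ribosome members lie below 0.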

How the data were processed

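Whole-transcriptome RNA was read on Illumina BeadChips, with all 12 HT29 arrays on 1 chip. Per the file headers, the deposited non-normalized table holds a raw intensity and a detection p-value per probe. The authors' processed intensity table was used only as an alternative, and the sources used here do not give its normalization. The header of 1 column, PLX4720 day 8 replicate 1, carries the word mean. Probes (47323) were background-corrected with limma 3.58.1 (nec, offset 16), quantile-normalized over 18 arrays and put on the log2 scale. A gene was represented by its brightest probe with a detection p under 0.01 on at least 2 HT29 arrays. Means of 6 HT29 groups were fitted with lmFit and eBayes in R 4.3.3, and p-values, two-sided, were adjusted by Benjamini-Hochberg over 12675 genes at 0.05. The number of arrays, 2 a group, limits the precision. Probe names came from the platform annotation, updated through RefSeq for 99.9% of named probes.

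The gene lists, the tests and the genes named were chosen with earlier results of these data known. Named genes were the 12 largest rises and falls, up to 4 leading members of each list, a set of standard markers and the 5 largest differences each way. The steps were tested on simulated data. Replicate numbers were not used to pair the arrays. Same-numbered deviations correlated weakly, at -0.020 to 0.130 over 15 group pairs, which does not exclude a weak pairing.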

Additional observations from a re-analysis of the deposited data

Results flagged for a closer look

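The test of the difference between the late change under DMSO and under PLX4720 picked out the following results. It found 623 genes with the DMSO change above and 449 with it below. Among single genes the differences above were 5.82 for COXFA4L2, 4.65 for IFITM1, 4.39 for HLA-B, 4.19 for HCP5 and 3.93 for IFI44L. COXFA4L2 was not detected on the 4 PLX4720 arrays. The difference below was -3.06 for TMEM158. The fit also gave -3.26 for RGS4, -3.01 for PRSS1, -2.83 for PAX4 and -2.54 for ENPP2, but these were not well above background on the 4 DMSO arrays, so their sizes and order were not measured. By list, the DMSO change stood above in 20 of 30 hypoxia members and 38 of 40 interferon members. It also stood above in 11 of 17 members of MHC class I presentation and 11 of 22 glycolysis members. Over all genes tested it stood above in 4.92% and below in 3.54%. It stood below in 14 of 23 ribosome members and in 1 glycolysis member. The PLX4720 day 8 arrays enter each of these values, 1 of them with the word mean in its header.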

How the results depend on the processing

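Of genes changed from day 3 to day 8, 4371 became 2721 with only the arrays of the comparison and 2634 to 4160 when 1 array of it was left out. Without PLX4720 day 8 replicate 1, a choice made after seeing the data, the count was 4052. The 1072 differences between DMSO and PLX4720 became 1807 without background correction, 1841 in the authors' processed table and 440 to 1285 with 1 array left out. With the replicate number as a block the counts were 4584 and 1159, but what same-numbered arrays share beyond the label is not known. NRF2 targets that fell numbered 6 with only the arrays of the comparison. Among called genes named, the call was lost in 9 to 13 of 16 settings for CDKN1B, MUC12 and CLCA4, and in 1 to 5 for CDH1, TMEM158, CXCL8, HMGCS1, KLF4, RB1, LDHA, DKK1, VIM, KRT20, IDH3A and KRT18, mostly with an array left out or only the arrays of the comparison. Goblet members that fell numbered 0 to 2 over the settings, and cholesterol members 0 to 3. Median scaling gave 2697 genes higher and 1694 lower. Signs turned for 8 genes that were not called. BNIP3 gave -0.046 without background correction, -0.157 with normexp that ignores detection p-values and -0.054 in the authors' table. FASN gave -0.038 and HIF1A 0.054 with median scaling, and DUSP6 gave -0.021 as the mean of its probes. With 1 array left out the ranges were -0.438 to 0.452 for BNIP3 (-0.025 without DMSO day 3 replicate 2), -0.174 to 0.250 for FASN, -0.464 to 0.256 for HIF1A, -0.284 to 0.407 for MKI67, -0.341 to 0.756 for CMPK2, -0.194 to 0.057 for CALR and -0.0028 to 0.214 for ATOH1. The cause was not tested. Dim genes near background limit what 2 arrays a group can show.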
